A study of Mus musculus with 16 samples.

Results

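Follicular B cells are the main population of small resting B cells in the spleen. In the naive spleen of this series, 11454 of 47060 CD45+ cells (24.3%, 95% exact interval 23.95 to 24.7, which covers counting error only) met a gate for them. The gate was set on unique molecular identifiers (UMIs), each of which marks 1 captured mRNA molecule. A cell had at least 2 UMIs summed over Cd79a and Cd79b, which encode the signalling chains of the B cell receptor, and at least 1 UMI of Fcer2a, which encodes CD23. It had no UMI of the T cell receptor genes Cd3e, Cd3d, and Cd3g, of the myeloid lysozyme gene Lyz2, or of Cd93, a gene of newly formed B cells. It also had UMIs of fewer than 2 of 6 genes that mark marginal zone B cells, which are Cr2, Cd1d1, Dtx1, S1pr3, Cd9, and Tm6sf1. The members were thus chosen by the measured UMIs of these 14 genes, whose levels are a description and were not tested. The gate took 40.3% of the 28412 cells that met its conditions on Cd79a, Cd79b, the Cd3 genes, and Lyz2 alone. So 24.3% is the share taken by this gate, and the size of the whole population was not measured.

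The cells came from untreated WT C57BL/6J mice, the reference of a study on kidney allografts that are accepted or rejected, and per the study's methods only male mice were used. Viable CD45+ spleen cells were sorted by flow cytometry, without a further sort of B cells, and profiled by droplet scRNA-seq from the 3′ end. Barcodes carried the tags of 5 libraries, which the labels do not tie to single mice. P-values below therefore measure how steady a difference between gates was over libraries, whose spread may be technical. Each library held between 8052 and 11340 CD45+ cells and between 30054753 and 37016197 UMIs. The gate took 2351, 2229, 2157, 2444, and 2273 cells of libraries 1 to 5. As a share of CD45+ cells this was 20.7%, 27.7%, 23.9%, 27.0%, and 23.7% (24.6% ± 2.80, SD, n = 5).

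Follicular B cells recirculate between blood and the B cell follicles of lymphoid organs, where they meet antigen and present it to T cells on MHC class II molecules. They carry IgD together with IgM on their surface. Marginal zone B cells stay at the border between white and red pulp, carry little IgD, and respond quickly to antigens in the blood. Transitional B cells are the newly formed cells that reach the spleen from the bone marrow and give rise to both populations.

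Follicular-gated cells were set against both neighbours, gated on the same matrix. Marginal-zone-gated cells (4253 cells) had the same B cell and exclusion conditions, no UMI of Fcer2a, and UMIs of at least 2 of the 6 marginal zone genes. Transitional-gated cells (519 cells) had at least 1 Cd93 UMI and fewer than 2 of these 6 genes. For each gate and library the UMIs were summed and scaled to a total of 1000000 UMIs (CPM). Summed UMIs of the follicular gate ranged from 5522780 to 7234348 per library. The gates were compared within libraries with the quasi-likelihood test of edgeR, and p-values were adjusted by the Benjamini-Hochberg method across every gene tested. Unless another test is named, a gene is called higher or lower below when its adjusted p from this test is under 0.05, and every log2 change is follicular minus the other gate.

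The cells differed in depth by gate. The median follicular-gated cell held 2482 UMIs, against 3536 in the marginal zone gate and 2668 in the transitional gate. A gate that asks for UMIs of several genes takes deeper cells, so the comparisons were repeated with gates set after thinning each cell to 2000 UMIs. Shallower cells were dropped there, and 9677 follicular-gated, 3874 marginal-zone-gated, and 330 transitional-gated cells were left. Calls lost after thinning thus rest on fewer cells as well as on equal depth. A zero for a gene of the rule does not show that the gene was off, and 6698 of the 11454 cells had a UMI of 1 of the 6 marginal zone genes.

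Ighd, which encodes the heavy chain of IgD and was not used by the gate, was measured in the gated cells at 1027, 1289, 1120, 1304, and 1200 CPM in libraries 1 to 5. Pooled over libraries it was at 11.4 CPM in 11243 T-gated cells, which had a Cd3 UMI and no Cd79 UMI and give the level of free RNA. After thinning to 1000 UMIs, an Ighd UMI was found in 66.0% of follicular-gated cells and 1.21% of T-gated cells (90.3% and 4.31% without thinning, at median depths of 2482 and 3802 UMIs). The gated cells thus carried their IgD marker far above the free RNA level. Of the 3 markers of the label, Fcer2a and Cd79a were used by the gate.

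Cells just inside and just outside the gate were compared by level, with no test. Inside the gate, Ighd stood at 1141 CPM in the 4814 cells with 1 Fcer2a UMI, at 1222 in the 3106 cells with 2, and at 1235 in the 3534 cells with 3 or more. Just outside it, the 6648 B cells with no Fcer2a UMI and fewer than 2 marginal zone genes had Ighd at 897 CPM. They also had Jchain at 1051 CPM, against 40.3 in the gate, Ighm at 5227 against 3149, and Plac8 at 589 against 304. This set thus held secretory transcripts that the gated cells had at a low level. The 3568 cells that failed only by having 2 of the 6 marginal zone genes had Ighd at 1062 CPM, and the 1733 cells with 3 or more had it at 763. Across the number of marginal zone genes, Ighd changed in steps. Ccr7 was at 107 and 77.9 CPM in the last 2 sets of cells and at 139.8 in the gate.

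Before the comparisons, 3 properties of the libraries bear on what follows. Hemoglobin transcripts stood at 1371 and 520 CPM (Hbb-bs) in the gated cells of libraries 1 and 3 and at 4.84 to 5.63 in the other libraries, and 97.2% of these UMIs lay in 1% of the gated cells. Doublets were called in 942 of 47060 cells (2.00%) and in 19 of the gated cells, but in only 1 of 11340 cells of library 1. The alternative without called doublets thus left the gated cells of library 1 unchanged and is no check there. Of 46821 distinct barcodes, 238 occurred in more than 1 library, and 13 of them met the gate in more than 1 library.

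Follicular-gated cells differed from marginal-zone-gated cells at 4374 of 10198 genes tested (42.9%). Of these, 2475 genes (24.3%) were higher and 1899 genes (18.6%) were lower in the follicular gate, and the median change of all genes was 0.04. With TMM scaling the split was 2042 higher and 2177 lower, so that the balance of directions rests on the scaling. The values of all 5 libraries lay apart between the gates, with no overlap, at 24.4% of the genes tested. These shares of all genes are the background for the lists below, which were grouped by function. A gene had to pass a filter on low counts to be tested. Genes that passed it only through the gate where they are high could hardly be called the other way. Counts of lists that hold such genes are a description. Some lists share genes, so their counts are not independent. Cd180, Tlr3, Mzb1, and Fcrl5, for instance, belong to the marginal zone list and also to another list.

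The heavy chain gene Ighd was higher in the follicular gate. It was at 394, 492, 452, 526, and 511 CPM in the marginal zone gate of libraries 1 to 5, so that every follicular value lay above every marginal zone value. It was 2.50-fold higher in the follicular gate by the fit, as are all folds below (log2 change 1.32 ± 0.03 SE, adjusted p = 6.87e-30). Ighm, which encodes the heavy chain of IgM, was lower by little in the follicular gate, at 3150 ± 201 against 3803 ± 598 CPM (SD, n = 5 libraries, log2 change -0.26), and with DESeq2 it was no longer called (adjusted p = 0.061). Without cells that held plasma cell transcripts, its change was only -0.05.

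Counted as a share, Ighd made up 25.5%, 27.7%, 27.6%, 29.6%, and 26.3% of the Ighd and Ighm UMIs in follicular-gated cells of libraries 1 to 5. In marginal-zone-gated cells the share was 11.5%, 9.81%, 9.58%, 12.5%, and 12.7%, and in transitional-gated cells it was 10.8%, 6.50%, 17.8%, 10.8%, and 6.39%. The follicular share was the highest in each library. Its mean lay 16.1 percentage points above the marginal zone gate and 16.9 above the transitional gate. Both differences had p = 0.0625 in a two-sided exact permutation test that flips signs over the 5 libraries, the smallest p that it allows, so that no share here can pass 0.05. Without cells that held plasma cell transcripts the transitional share was 17.4%, and the difference from it was 10.4 percentage points.

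**Figure D1:**
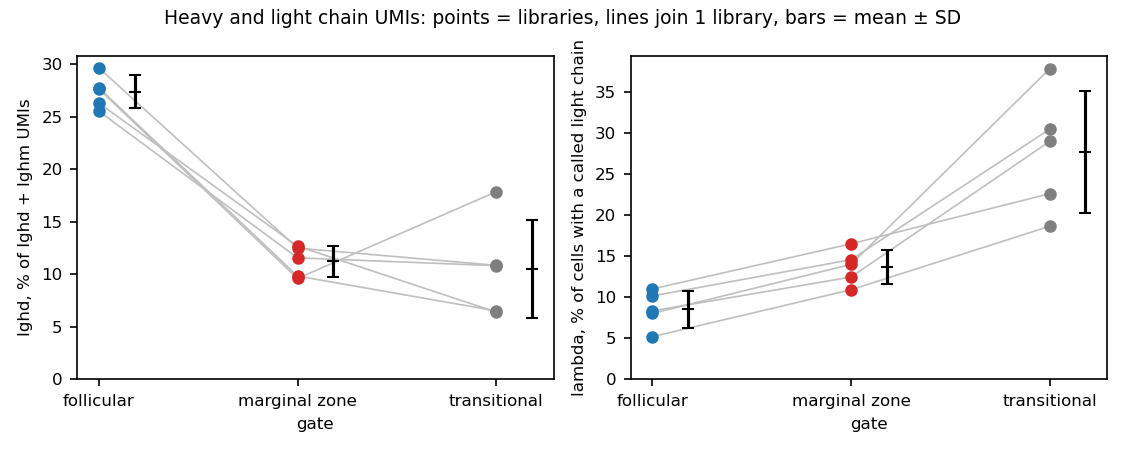
Share of Ighd among Ighd and Ighm UMIs (left, percent) and share of lambda cells among cells with a called light chain (right, percent) in the 3 gates; each point is 1 library, lines join the points of 1 library, and bars give mean ± SD. The Ighd share is highest in follicular-gated cells in all 5 libraries (25.5% to 29.6%), and the lambda share is lowest there (5.17% to 11.0%).

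Light chains differed as well. A B cell carries either kappa or lambda light chains, and the kappa constant gene Igkc outnumbers lambda in the mouse. A cell was called kappa or lambda when it had at least 5 light chain UMIs and at least 80% of them came from one class. By this rule 5234 follicular-gated cells were kappa and 482 were lambda, while 5718 cells (50.01% of those with 5 UMIs) were mixed and stayed uncalled. Among called cells lambda made up 8.31%, 8.0%, 11.0%, 10.1%, and 5.17% in libraries 1 to 5.

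The lambda share was 8.52% ± 2.25 in the follicular gate, 13.7% ± 2.12 in the marginal zone gate, and 27.7% ± 7.41 in the transitional gate (SD, n = 5 libraries). It was lowest in the follicular gate in 5 of 5 libraries, with an exact sign-flip permutation p = 0.0625 against each other gate. Cells that Iglc2 and Iglc3 called lambda, which are near-identical copies whose reads cannot be told apart with certainty, made up 1.51% in the follicular gate, 4.01% in the marginal zone gate, and 4.04% in the transitional gate (lower in the follicular gate in 5 of 5 libraries, exact sign-flip permutation p = 0.0625 for each). Cells that Iglc1 called lambda made up 2.82%, 3.05%, and 6.24% in the 3 gates. These classes do not add up to the lambda share. Pooled over libraries, Iglc1 called 161 and Iglc2 with Iglc3 called 85 of 482 lambda cells in the follicular gate. The counts were 59 and 75 of 262 in the marginal zone gate, and 13 and 8 of 57 in the transitional gate. Many lambda cells thus lay in neither class, and in the transitional gate most did. Their part in the differences was not tested. For Iglc1 the follicular share was lower than the marginal zone share in 3 of 5 libraries and higher in 2 (p = 0.5 in the same exact test), and lower than the transitional share in 4 of 5 (p = 0.125). With a threshold of 90% from one class the lambda share rose in every gate, to 19.6%, 32.3%, and 58.0%. The differences grew along with these shares, from -5.14 to -12.7 and from -19.2 to -38.5 percentage points. The share of mixed cells was 53.5% in the marginal zone gate and 60.8% in the transitional gate, and its part in these differences was not tested.

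Of 16 genes of the B cell receptor and its coreceptors, 3 were higher and 9 were lower in the follicular gate than in the marginal zone gate (list median -0.17). Ighd, Igkc, and Iglc3 were higher, and DESeq2 did not call the 2 light chain genes (adjusted p = 0.29 and 0.16). Beside Ighm, several genes on the lower side encode surface proteins. Cd38, an ectoenzyme, was at 210 ± 17.9 against 334 ± 17.2 CPM (SD, n = 5 libraries, log2 change -0.68). Cd81, a tetraspanin of the coreceptor complex, changed by -0.57, the sialoglycoprotein gene Cd24a by -0.44, Ms4a1 (CD20) by -0.37, and the inhibitory Fc receptor gene Fcgr2b by -0.34. For these genes no follicular library overlapped a marginal zone library, whereas Siglecg (-0.21) overlapped, as did Cd72 (-0.13), whose call was lost under several alternatives.

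Signalling genes downstream of the receptor split. Of 18 genes, 10 were higher and 5 were lower. Rasgrp3, an exchange factor that activates Ras, was at 203, 168, 181, 158, and 160 CPM in the follicular gate and at 118, 72.4, 103, 91.4, and 78.0 in the marginal zone gate. These values did not overlap (log2 change 0.91 ± 0.05 SE, adjusted p = 1.29e-16). The protein kinase C gene Prkcb (0.48), the phosphatase gene Ptpn6 (0.39), Plcg2 (0.35), Btk (0.29), and the scaffold gene Bank1 (0.22) were also higher. On the lower side were the Src family kinase gene Blk (-0.69), the adaptor gene Blnk (-0.61), and Malt1 (-0.60), a protease of the NF-kB pathway. Genes on both sides act in the same cascade, so the list did not move one way.

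Transcription factor genes were mostly higher, with 16 higher and 2 lower of 20 (list median 0.28, against 24.3% and 18.6% of all genes). Bach2, a repressor that holds back plasma cell fate, was at 200, 226, 232, 213, and 221 CPM in the follicular gate and at 59.5, 62.3, 75.2, 79.8, and 86.7 in the marginal zone gate. It was 3.00-fold higher (log2 change 1.59 ± 0.05 SE, adjusted p = 9.27e-23). Klf2, a factor known to control homing receptors in lymphocytes, was at 787, 947, 939, 1028, and 962 against 302, 384, 368, 413, and 378 CPM. It was 2.53-fold higher (log2 change 1.34), again with no overlap between the gates.

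Further genes of this list that were higher were Id3 (log2 change 0.87), an inhibitor of E proteins, Klf3 (0.79), Mef2c (0.62), Ets1 (0.54), Irf8 (0.38), and Foxo1 (0.32). Pax5 and Foxp1, both genes of B cell identity, were higher by only 0.15 and 0.21. Ebf1 was not called, at 1365 and 1338 CPM. Those that were lower were Ikzf1 (-0.53) and Irf4 (-0.45), a factor that rises on activation. Thus the identity factors were close between the gates while Bach2 and Klf2 were far apart.

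**Figure D2:**
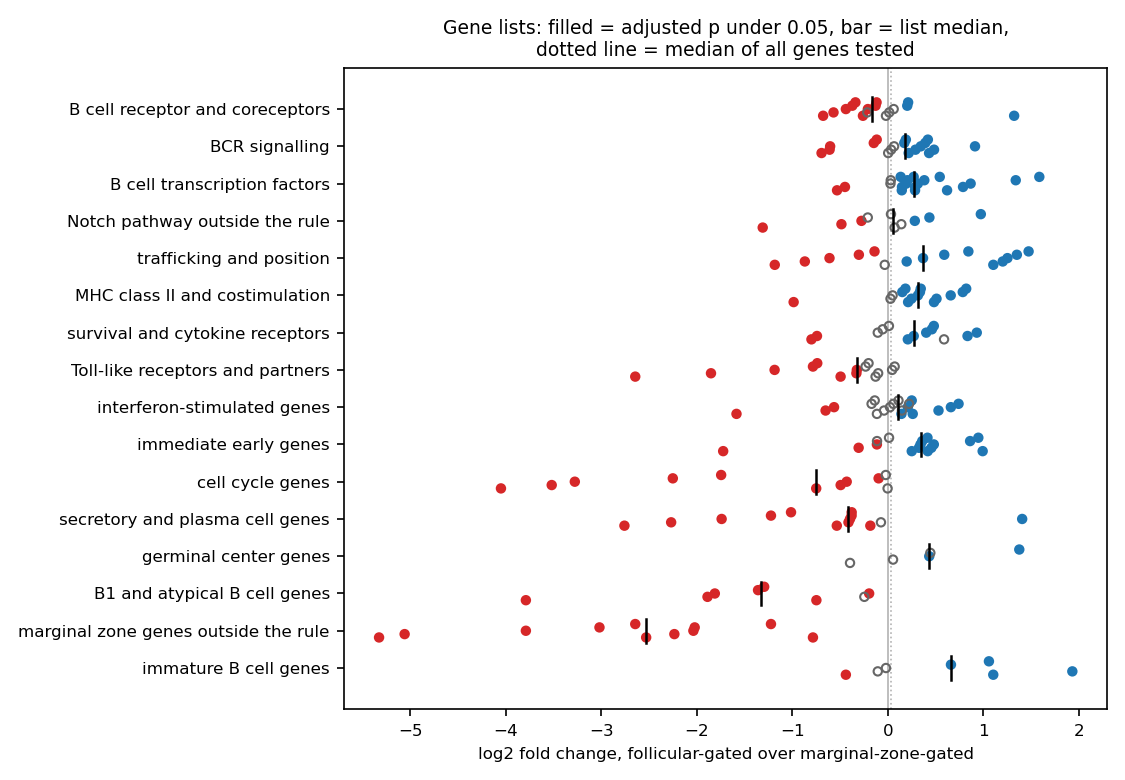
Log2 change of follicular over marginal-zone-gated cells for each tested gene of 16 lists (horizontal axis); each point is a gene, filled points have an adjusted p under 0.05 (blue higher, red lower), black bars are list medians, and the dotted line is the median of all genes tested (0.04). The list medians reach from -2.53 for marginal zone genes outside the rule to 0.66 for immature B cell genes.

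Genes of trafficking and position showed large changes in both directions, with 9 higher and 5 lower of 15 tested (list median 0.37). Chemokine receptors of the white pulp were among the higher genes. Ccr7, the receptor for the T zone chemokines, was at 159, 130, 145, 128, and 141 CPM against 57.8, 43.8, 63.7, 51.2, and 58.1, and so was 2.55-fold higher (log2 change 1.35, adjusted p = 1.62e-20). Cxcr4 was at 86.7, 62.0, 90.3, 75.9, and 91.2 against 27.3, 20.9, 32.2, 27.9, and 37.6. The sphingosine phosphate receptor gene S1pr4 (log2 change 1.2), the integrin gene Itgb7 (1.11), the adhesion gene Icam2 (0.84), and the oxysterol receptor gene Gpr183 (0.59), known as EBI2, were higher too. None of these genes overlapped between the gates. Ccr6 was higher by 0.37, with overlap.

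On the lower side, S1pr1, the sphingosine phosphate receptor used to leave tissues and to stay in the marginal zone, was at 155, 228, 151, 180, and 148 CPM against 265, 388, 292, 320, and 301 (log2 change -0.87). The integrin genes Itgb1 (-1.18) and Itgal (-0.61), which encode chains of the adhesion receptors that hold marginal zone B cells, were lower without overlap, and Itgb2 (-0.30) was lower as well. Cxcr5, the receptor that guides B cells into follicles, was nearly level, at 114 ± 8.09 and 126 ± 13.5 CPM. It was called lower by 0.14, and DESeq2 did not call it (adjusted p = 0.14). S1pr1, Itgb1, and Itgal thus went against the direction of Ccr7.

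**Figure D3:**
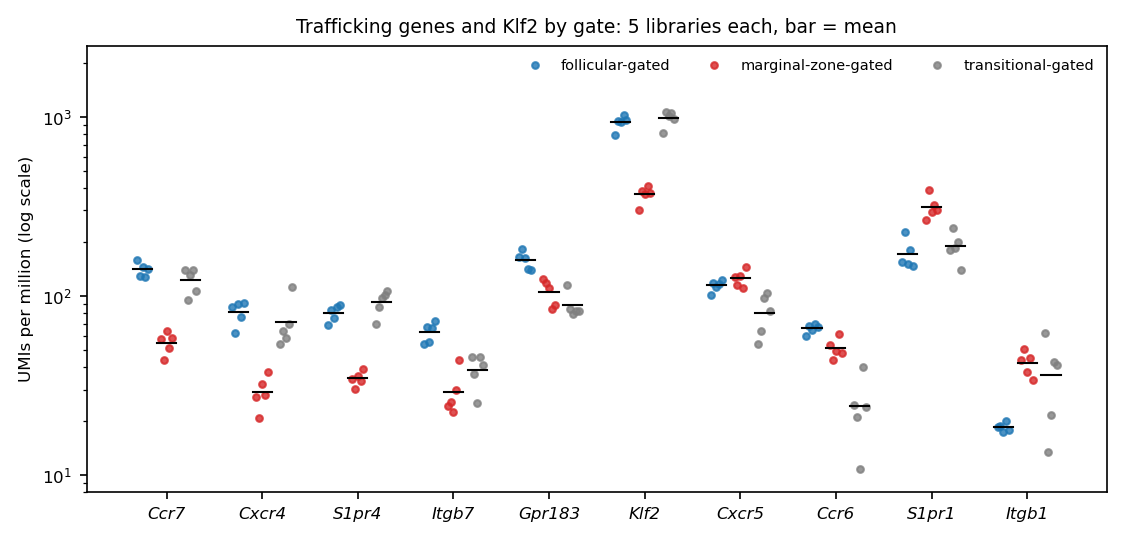
CPM (log scale) of 9 trafficking genes and Klf2 in the 3 gates; each point is 1 of 5 libraries and bars are means. Ccr7, Cxcr4, S1pr4, Itgb7, Gpr183, and Klf2 lie higher in every follicular than in every marginal zone library, S1pr1 and Itgb1 lie lower, and Ccr6 is lowest in the transitional gate.

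MHC class II genes were higher in the follicular gate than in either neighbour. Of 15 genes of class II presentation and costimulation that were tested (18 listed), 12 were higher and 1 was lower against the marginal zone gate (list median 0.32). Against the transitional gate 12 were higher and 0 were lower (list median 0.48), where 2.96% of all 9460 genes tested were higher and 4.27% were lower (7.23% in all). With gates set after thinning to 2000 UMIs the counts were 10 and 1 against the marginal zone gate and 5 and 0 against the transitional gate. Of all genes tested with those gates, 1533 were higher and 1113 lower of 9077, and 107 and 158 of 8253, respectively.

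In full, H2-Aa, the alpha chain of I-A, was at 3323, 3258, 3564, 3389, and 3286 CPM in the follicular gate. It was at 2709, 2530, 2737, 2582, and 2684 in the marginal zone gate, and at 2032, 1908, 2848, 2198, and 1960 in the transitional gate. The follicular values lay above all others, by a modest 1.27-fold and 1.55-fold (log2 changes 0.35 ± 0.02 and 0.63 ± 0.05 SE, adjusted p = 3.58e-18 and 1.82e-13). H2-Ab1, the beta chain (0.32 and 0.58), H2-Eb1 (0.25 and 0.60), and the invariant chain gene Cd74 (0.34 and 0.29) changed by similar amounts. Ciita, the master activator of class II genes, was higher by 0.48 in both comparisons.

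H2-Ob stood apart from this even shift. It encodes a chain of H2-O, which restrains peptide loading by H2-M, and was at 522, 574, 545, 558, and 536 CPM in the follicular gate against 292, 308, 309, 317, and 320 in the marginal zone gate. That is 1.77-fold (log2 change 0.82 ± 0.03 SE, adjusted p = 2.75e-22). Its partner H2-Oa was at 202 ± 5.90 against 195 ± 15.6 (SD, n = 5 libraries) and was not called (edgeR adjusted p = 0.314). H2-DMb1, a chain of H2-M, was higher by 0.51. Against the transitional gate H2-Oa was higher by 0.61, and H2-Ob by 0.33. The calls of H2-Oa, H2-Ob, and H2-DMb1 against the transitional gate were lost with gates set after thinning (adjusted p = 0.23, 0.83, and 0.12).

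Costimulatory genes did not follow one direction. Icosl, the ligand of ICOS on helper T cells, was at 119, 127, 124, 126, and 146 CPM against 84.3, 83.8, 76.2, 76.6, and 85.9 in the marginal zone gate (log2 change 0.66). Cd83 was higher by 0.78. Cd86, a ligand of CD28, was lower, at 47.8, 37.6, 45.5, 34.1, and 36.9 against 103, 82.5, 82.4, 66.4, and 67.9 (log2 change -0.99 ± 0.06 SE, adjusted p = 7.52e-16). Thus Cd86 was the 1 gene of this list that was lower in the follicular gate, and Cd40 was not called.

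**Figure D4:**
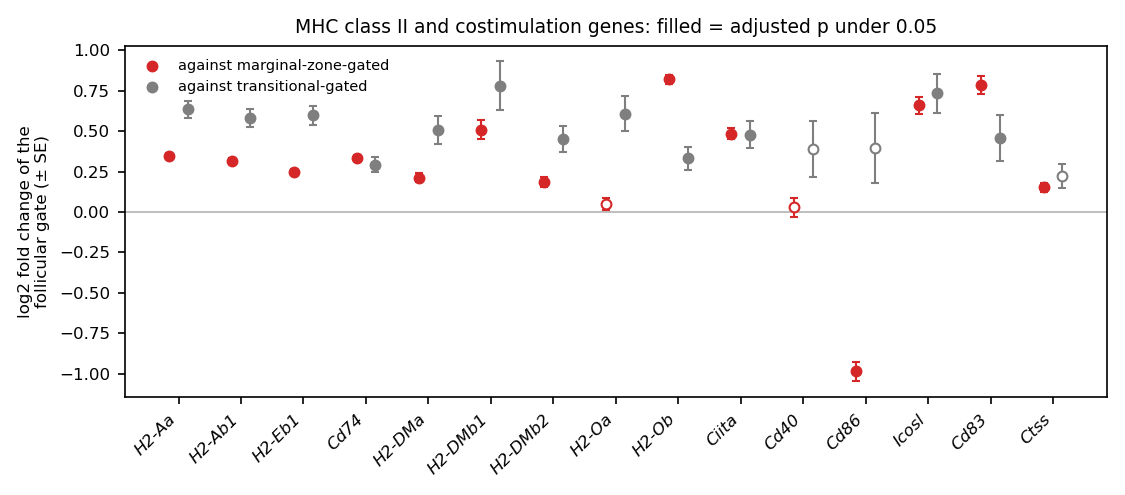
Log2 change ± SE of follicular-gated cells against marginal-zone-gated (red) and transitional-gated cells (gray) for 15 class II and costimulation genes; filled points have an adjusted p under 0.05. Only Cd86 lies clearly below 0 against the marginal zone gate (-0.99), and H2-Ob has the largest positive change there (0.82).

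Promoters of 3 class II genes, H2-Aa, H2-Eb1, and H2-Ob, are printed as a description. All 3 are among the promoters of the list that hold the same 2 short motifs. A link of these motifs to the changes of the genes was not tested. The 150 bases before the annotated start are from RefSeq on GRCm38.p6, 5′ to 3′ on the strand of the gene. Capitals mark GATTGG or its reverse complement CCAATC, the core of the Y box bound by NF-Y, and GCAAC, a piece of the X box bound by the RFX complex.
H2-Aa, chr17:34287824-34287973, minus strand: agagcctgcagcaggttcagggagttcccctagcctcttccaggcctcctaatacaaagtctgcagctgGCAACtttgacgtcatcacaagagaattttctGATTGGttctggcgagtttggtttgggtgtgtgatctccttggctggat
H2-Eb1, chr17:34305717-34305866, plus strand: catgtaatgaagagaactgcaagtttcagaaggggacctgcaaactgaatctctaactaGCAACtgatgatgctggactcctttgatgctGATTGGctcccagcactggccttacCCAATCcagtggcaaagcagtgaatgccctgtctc
H2-Ob, chr17:34238755-34238904, plus strand: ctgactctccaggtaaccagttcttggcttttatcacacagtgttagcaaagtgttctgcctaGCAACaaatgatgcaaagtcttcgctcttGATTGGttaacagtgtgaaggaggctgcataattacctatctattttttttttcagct

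Searched on both strands over 150 bases, GATTGG was found in 10.9% and GCAAC in 19.6% of 32851 promoters of the table, and both in 2.22%. Of the 11 promoters that the table holds for the list, 7 had GATTGG, 6 had GCAAC, and 4 had both. The match of letters is a description only.

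Receptors for survival and cytokine signals were mostly higher, with 7 higher and 2 lower of 13 tested. Il4ra, a chain of the IL-4 receptor, was at 92.2, 112, 100, 100, and 105 CPM against 49.1, 50.8, 54.2, 48.4, and 63.6 in the marginal zone gate (log2 change 0.93). Il21r was higher by 0.83, the BAFF receptor gene Tnfrsf13c by 0.48, and the common gamma chain gene Il2rg by 0.46. The 2 genes that were lower were Bcl2a1b (-0.74) and Bcl2a1d (-0.80), close copies of an anti-apoptotic gene whose reads may be split between them.

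Genes of innate sensing were lower or not called. Of 14 Toll-like receptor genes and partners, 0 were higher and 8 were lower (list median -0.33). Cd180, a Toll-like receptor homolog of B cells, was at 194, 229, 240, 210, and 227 CPM against 360, 417, 379, 352, and 387 (log2 change -0.78). Its partner gene Ly86 was lower by 0.49. Tlr7 (-1.19), Ly96 (-1.85), and Tlr3 (-2.65) were lower from low levels, at 11.0 against 25.1, 5.42 against 19.5, and 2.01 against 12.8 CPM. Tlr9 was lower by 0.74 at 3.04 against 5.11, a call that DESeq2 did not make (adjusted p = 0.17).

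Genes that mark marginal zone B cells and took no part in the gates were lower throughout. All 11 genes of that list were tested and 11 were lower (list median -2.53), and with gates set after thinning 10 of 10 were lower. Members with low follicular levels, such as Tlr3, passed the filter on low counts only through the marginal zone gate. They could hardly be called higher, so these counts are a description. Plac8 was at 326, 263, 341, 297, and 297 CPM against 1282, 1147, 1262, 1246, and 1247, and so was 4.06-fold higher in the marginal zone gate. Mzb1, a chaperone gene of IgM assembly, was at 288 ± 28.6 against 672 ± 62.2 (log2 change -1.22). Marcks (-2.24), the scavenger receptor gene Cd36 (-2.53), and Fcrl5 (-3.79) changed more.

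The 10 lowest log2 changes among genes at 50 CPM or more in a gate are given next. I830077J02Rik was at 0.362 to 1.40 CPM in the follicular gate and at 51.6 to 67.0 in the marginal zone gate (log2 change -6.11). Nebl (-5.01), AW011738 (-4.53), the G protein regulator gene Rgs10 (-4.38), the membrane repair gene Myof (-4.11), and Ahr (-3.51), which encodes the aryl hydrocarbon receptor, followed. Ptpn14 (-3.49), Atxn1 (-3.31), and Mfhas1 (-2.75) completed the list with Fcrl5. These genes were picked for their low follicular level and the same direction in every library, and several passed the limit of 50 CPM only through the marginal zone gate.

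The 10 largest positive changes were smaller. Cd55, which encodes a protein that protects cells from complement, was at 496, 585, 472, 629, and 491 CPM against 163, 149, 161, 184, and 178 (log2 change 1.67 ± 0.04 SE, adjusted p = 4.33e-26). Gm15675, a gene next to it on chromosome 1 and on the same strand, changed alike (1.56). Cd55 (chr1:130439027-130462744, GRCm38) and Gm15675 (chr1:130429781-130437191) do not overlap. Bach2, Cxcr4, and Ccr7 were among the 10, with the inhibitory ligand gene Cd200 (1.53), Fry (1.46), Gm19951 (1.44), the adhesion receptor gene Slamf1 (1.38), and Bcl6 (1.38). They too were picked by their change, and some, such as Cxcr4 and Bcl6, passed the limit of 50 CPM only through the follicular gate.

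Bcl6, known for its role in germinal centers, was at 47.3, 58.0, 53.7, 57.2, and 70.3 CPM against 20.9, 23.2, 17.7, 23.7, and 25.4. Of 8 listed germinal center genes 5 were tested, of which 2 were higher and 0 were lower. Zfp318, which controls the choice between IgM and IgD and was chosen after its values were seen, was 2.41-fold higher (425 against 176 CPM, log2 change 1.27, adjusted p = 1.24e-25).

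Notch pathway genes outside the rule split, with 3 higher and 3 lower of 10 tested. Hes1, a direct target of Notch, was at 26.4, 43.5, 36.0, 33.3, and 33.3 CPM against 73.9, 113, 84.4, 83.3, and 74.7 (log2 change -1.31). Lfng (0.97) and Mfng (0.28), which encode enzymes that modify Notch with sugar, were higher, as was Maml1, and the call of Mfng was lost with DESeq2 (adjusted p = 0.27). Notch2, the receptor itself, was at 67.8 and 60.8 CPM and was not called (edgeR adjusted p = 0.0893).

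Immediate early genes, which respond within minutes to stimulation and to cell handling, were mostly higher, with 11 higher and 3 lower of 16 (list median 0.35). Jund was at 1217, 1309, 1254, 1302, and 1226 CPM against 653, 663, 616, 705, and 634 (log2 change 0.95). Ier2 was higher by 0.99 and Junb by 0.86. Myc was lower, at 27.0, 22.6, 27.6, 16.04, and 15.7 against 96.1, 75.7, 88.9, 55.4, and 45.01 (log2 change -1.72 ± 0.07 SE, adjusted p = 1.66e-20). Fosb was lower by 0.31, Fos was higher by 0.36, and both calls were lost without the library block (adjusted p = 0.10 and 0.27). The direction of Jund and that of Myc were therefore opposite within the list.

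Interferon-stimulated genes were split, at 7 higher and 3 lower of 19 tested. Ifi209 was higher by 0.53 and Irf7 by 0.66, whereas Isg15, a ubiquitin-like modifier, was lower by 1.58, at 11.1 ± 2.20 against 33.5 ± 6.73 CPM (SD, n = 5 libraries). The call of Irf7 was lost with gates set after thinning (adjusted p = 0.28).

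Dividing cells were rare in the follicular gate. Of 11 cell cycle genes tested, 0 were higher and 9 were lower than in the marginal zone gate. Those that passed the filter on low counts only through the marginal zone gate could hardly be called higher, so this count is a description. Mki67 was at 5.25, 6.51, 1.24, 3.73, and 1.88 CPM against 56.1, 35.3, 42.2, 50.1, and 28.1 (log2 change -3.52). Its 116 UMIs in follicular-gated cells came from 62 of 11454 cells, and 31 of them from 1 cell. With gates set after thinning, 1 was higher and 2 were lower of 8 tested, beside 1533 higher and 1113 lower of all 9077 genes tested. At equal depth and with fewer cells, this list thus no longer stood far from all genes.

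Per cell, a state was counted when a cell thinned to 1000 UMIs had UMIs of at least 3 genes of its list. The cell cycle list was met by 0.185% ± 0.10 of follicular-gated, 1.2% ± 0.52 of marginal-zone-gated, and 1.04% ± 1.14 of transitional-gated cells (SD, n = 5 libraries). The immediate early list was met by 61.8%, 63.0%, 66.0%, 61.3%, and 49.9% of follicular-gated cells and by 48.1% ± 5.83 of marginal-zone-gated cells, higher in 5 of 5 libraries (exact sign-flip permutation p = 0.0625). The interferon list was met by 15.6% ± 2.63 and 13.1% ± 2.19, also higher in 5 of 5 libraries. In the transitional gate they were met by 60.5% ± 5.59 and 19.4% ± 7.03, so that the differences were -0.098 and -3.79 percentage points, with exact sign-flip permutation p = 1.0 and 0.25. Without thinning, the differences of both lists from the marginal zone gate turned over, to -2.29 and -12.9 percentage points. Thinning left out 36, 6, and 2 cells of the 3 gates.

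Secretory and plasma cell genes were lower in the follicular gate, at 1 higher and 11 lower of 13. Pdia4, a folding enzyme gene, was at 82.5 ± 5.64 against 275 ± 10.8 CPM (log2 change -1.74). Sdc1, which encodes CD138, was the 1 gene that was higher, at 4.56 against 1.72 (log2 change 1.41). Without cells that held at least 3 Jchain UMIs or a Sdc1 UMI, which were 139 follicular-gated cells (1.21%) and 33 marginal-zone-gated cells (0.776%), 7 were lower of 11 tested. Sdc1 could not be tested there, since the exclusion removes every cell that holds it, and Jchain was also used to exclude cells. Switched constant genes were lower at 3 of 3 tested, and without those cells 1 was higher and 1 was lower. Jchain showed how few cells can carry a level, since 595 of its 614 UMIs in library 1 lay in 1 cell.

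RNA of other cell types differed between the gates. Of 7 T and NK cell genes tested, 1 was higher and 4 were lower, and of 11 myeloid genes 1 was higher and 8 were lower in the follicular gate. The summed level of the T and NK list was 202 to 231 CPM in the follicular gate and 152 to 218 in the marginal zone gate, and that of the myeloid list was 215 to 392 and 180 to 532. Nkg7 was at 5.62 against 20.02 and C1qa at 3.31 against 13.6 CPM. Without cells that had a UMI of 14 such genes (12.9% of follicular-gated and 17.8% of marginal-zone-gated cells), 2355 genes were higher and 1618 were lower. The counts for trafficking genes were then 9 and 4 of 15, and those for class II genes 12 and 1 of 15. Erythroid genes were called at 0 of 3.

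B1 and atypical B cell genes were lower as well, with 0 higher and 7 lower of 8 tested. Several had low follicular levels, and any that passed the filter on low counts only through the marginal zone gate could hardly be called higher. This count is therefore a description, and Fcrl5 is also in the marginal zone list. Bhlhe41, a factor of B1 cells, was at 6.01 against 15.6 CPM (log2 change -1.36), and lost its call with gates set after thinning (adjusted p = 0.16). Immature B cell genes were higher than in the marginal zone gate for 4 of 7 tested and lower for 1. Vpreb3, a gene of B cell precursors, was at 273 ± 32.7 against 127 ± 12.8 (log2 change 1.10), and Sox4 at 25.4 ± 1.71 against 6.65 ± 2.04 (1.93).

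The size of these changes also moved with the width of the marginal zone gate. When cells with an Fcer2a UMI were let into that gate, log2 changes shrank, for Ighd from 1.32 to 0.70, for Klf2 from 1.34 to 0.87, and for Bach2 from 1.59 to 0.91, with all 3 still called.

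Follicular-gated and transitional-gated cells differed at 684 of 9460 genes tested (7.23%), with 280 higher and 404 lower in the follicular gate, and at 6.92% of the genes the 5 libraries of the gates did not overlap. The transitional gate held only 85 to 141 cells in a library. It also held plasma-like cells, which were 27 of its 519 cells (5.2%), and Jchain stood at 2876, 6084, 0, 2932, and 3270 CPM in it. The counts without such cells were 205 higher and 428 lower, and with 2 Cd93 UMIs asked for they were 50 and 109.

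Genes of immaturity were lower in the follicular gate, at 5 of 7 tested with 0 higher (list median -0.93). Vpreb3 was at 246, 323, 258, 249, and 289 CPM against 527, 533, 453, 571, and 602 in the transitional gate, with no overlap (log2 change -0.97 ± 0.07 SE, adjusted p = 3.31e-15). Cd24a (-0.86), Myb (-1.98), Cecr2 (-0.93), and Sox4 (-1.37) were also lower without overlap, though Sox4 turned to 0.17 with 2 Cd93 UMIs asked for. The means of Vpreb3 and Sox4 were lowest in the marginal zone gate and highest in the transitional gate, with the follicular gate between them. Ighd was higher than in the transitional gate by 0.44, a call that was lost with gates set after thinning (adjusted p = 0.065).

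Immunoglobulin levels in the transitional gate moved with its plasma-like cells. Of 16 receptor and coreceptor genes 1 was higher and 10 were lower in the follicular gate. Igkc was lower by 1.57, and by 0.11 without cells with plasma cell transcripts. Ighm was lower by 1.36, and by 0.55 without them. Iglc1 was lower by 1.47. Secretory genes were lower at 13 of 13, and without those cells, which were excluded by Sdc1 and Jchain themselves, at 2 of 10. Ms4a1 was lower by 0.39 and Cd72 by 0.64.

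Among trafficking genes 5 were higher and 1 was lower, Itgb1, of 15. Ccr6, the receptor for CCL20, was at 60.1, 68.3, 64.6, 69.8, and 67.1 CPM against 24.7, 21.2, 10.9, 40.1, and 23.9, and so was 2.71-fold higher (log2 change 1.44 ± 0.21 SE, adjusted p = 1.07e-06). Gpr183 (0.86), Itgb7 (0.71), and Cxcr5 (0.52) were higher too. Without library 2 the calls of Itgb7 and Cxcr5 were lost (adjusted p = 0.062 and 0.13). Klf2 was not called, at 933 ± 88.4 against 983 ± 99.0 CPM (SD, n = 5 libraries, edgeR adjusted p = 0.604), nor were Ccr7 (0.314) and Bach2 (0.132). Klf2, Ccr7, and Bach2, which lay far above the marginal zone gate, thus had no call against the transitional gate, while Cd55 did (log2 change 0.61).

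The counts of the other lists stand beside 7.23% of all genes called in this comparison. Of 20 transcription factor genes 2 were higher and 3 were lower, and without plasma-like cells 0 were higher and 9 were lower. Ets1 (0.31) and Klf3 (0.41) were higher, and Spib (-0.61) and Id3 (-0.33) were among the lower genes. Of 18 signalling genes only Bank1 was higher (0.39), of 10 Notch genes 0 were called, and of 16 immediate early genes 1 was higher and 4 were lower, with Fos (-0.76) and Egr1 (-1.21) on the lower side. Interferon genes were lower at 3 of 19, Ifi27l2a by 0.48. Survival and cytokine receptor genes were higher at 2 and lower at 2 of 13, and Toll-like receptor genes were higher at 1 of 12, which was Ly86. Cell cycle genes were lower at 2 of 10, switched constant genes at 2 of 2, B1 genes at 2 of 4, and marginal zone genes outside the rule at 2 of 7, which were Mzb1 and Plac8. The count of switched genes rests on single cells, since 1 transitional-gated cell held 2096 of 2130 Ighg2b UMIs and 1 held 620 of 630 Igha UMIs. Bcl6 was the 1 higher gene of 4 germinal center genes, and Nkg7 the 1 higher gene of 5 T and NK cell genes.

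The 10 largest positive changes against the transitional gate began with Hbb-bs (4.82), the hemoglobin gene that was high in libraries 1 and 3, which lost its call without the library block (adjusted p = 0.098). Of 2 erythroid genes tested both were called higher. The summed level of the whole erythroid and platelet list was 2378, 17.0, 994, 12.3, and 13.5 CPM in the follicular gate and 94.8, 46.3, 39.9, 16.02, and 13.7 in the transitional gate, so that it was lower in the follicular gate in libraries 2, 4, and 5. Fxyd5 (1.65) and Ccr6 came next, then Lncpint (1.28), Pglyrp1 (1.26), Nfkbid (1.13), the class II gene H2-Eb2 (1.09), Pxdc1 (1.04), Gpr174 (1.03), and the GTPase gene Gimap4 (1.03). Gpr174, a receptor for lysophosphatidylserine, was at 106, 108, 112, 110, and 108 CPM against 61.8, 42.5, 72.5, 48.1, and 51.3. The follicular values lay close together. All 10 genes were picked by their change, and Ccr6, for 1, passed the limit of 50 CPM only through the follicular gate.

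On the lower side were Mki67 (-3.77), Wfdc21 (-3.28), Ly6c2 (-2.98), the anchor protein gene Akap12 (-1.80), Edem1 (-1.68), Txndc5 (-1.65), Igkc, Iglc1, Fam129c (-1.39), and Sox4. These genes were picked by their change, and several, such as Mki67 and Akap12, passed the limit of 50 CPM only through the transitional gate. Few cells carried Mki67 and Ly6c2, since 1 transitional-gated cell held 38 of 99 Mki67 UMIs and 1 held 62 of 165 Ly6c2 UMIs. Edem1 and Txndc5 act in protein folding and quality control in the endoplasmic reticulum, and Edem1 lost its call without plasma-like cells (adjusted p = 0.40). Akap12 was at 31.8 ± 2.61 against 111 ± 21.2 CPM (SD, n = 5 libraries). Of 5 myeloid genes tested 3 were lower, Ly6c2 among them, and the summed myeloid level was 250 to 734 CPM in the transitional gate.

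Within follicular-gated cells, the libraries were close for most genes. Over the 1415 genes that averaged 100 CPM or more, the median SD of log2 values over the 5 libraries was 0.08. The genes that took the largest shares of UMIs outside ribosomal and mitochondrial genes were Malat1 (36359 ± 2910 CPM), Igkc (8575 ± 527), Tpt1 (8505 ± 506), Cd74 (8263 ± 372), and Tmsb4x (8106 ± 355). H2-Aa, Ighm, H2-Ab1, and H2-Eb1 were among the first 20, as was Cd79a, which the gate used.

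The genes that varied most fell into a few groups. Hbb-bs, Hba-a1, and Hbb-bt followed libraries 1 and 3, as described. Fos was at 236, 217, 244, 206, and 82.4 CPM, lowest in library 5. Ifi27l2a, an interferon-stimulated gene, was at 559, 352, 521, 465, and 254, also lowest there. Gm42418, a gene that overlaps ribosomal RNA repeats, was at 4302, 6680, 6987, 5635, and 10093, and so highest in library 5, and Lars2, at 93.4, 150, 154, 129, and 198, had the same order of extremes. Gm43305 and Iglc1 were also among the most variable genes.

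Heat shock genes, chosen after their values were seen, were highest in library 5. Dnaja1 was at 455, 398, 379, 390, and 720 CPM, Hsp90aa1 at 477, 479, 416, 452, and 751, and Hspa8 at 1046, 996, 808, 966, and 1483. Library 5 had low Fos and high chaperone genes together, and marginal-zone-gated cells showed the same, with Fos at 178, 171, 195, 158, and 64.9 and Dnaja1 at 326, 319, 260, 310, and 505.

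Iglc1 was at 764, 781, 797, 1457, and 721 CPM. In library 4 a single cell held 4455 of its 10541 UMIs (42.3%), and without that cell the value was 843. For Igkc in library 1, 1 cell held 5901 of 51216 UMIs (11.5%). Levels of constant region genes in this gate can therefore rest on 1 cell.

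**Figure D5:**
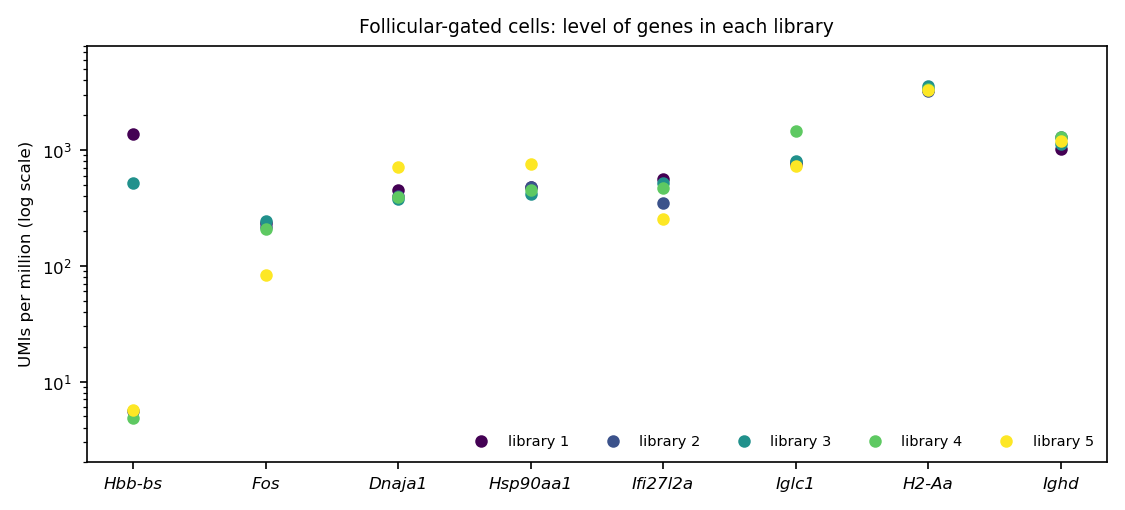
CPM (log scale) of 8 genes in follicular-gated cells, with 1 point for each of the 5 libraries. Hbb-bs is high in libraries 1 and 3, Fos and Ifi27l2a are lowest and Dnaja1 and Hsp90aa1 highest in library 5. H2-Aa differs little between libraries, and Ighd somewhat more.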

How the data were processed

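The authors sorted viable CD45+ cells, sequenced Chromium Single Cell 3′ libraries, mapped reads with Cell Ranger (mm10 per the submitters' processing notes, version not given in the sources used here), and removed cells on the basis of gene number, UMI number, and mitochondrial reads (limits not given). They deposited raw UMI counts per gene and cell (17644 genes), without normalization. Here UMIs were summed per library and gate and scaled by plain totals to counts per 1000000 (CPM). Gates were compared by edgeR 4.0.16 (R 4.3.3, quasi-likelihood, filterByExpr, library as a block, since both gates come from each library), after the 14 rule genes were left out. Tested on simulated data, the fit recovered 96.0% of 2-fold changes and 65.3% of log2 changes of 0.5 against the marginal zone gate, and 72.8% and 25% against the transitional gate. The simulated counts had the same small dispersion for all genes and no difference between libraries beyond their totals. These rates therefore need not hold for the real data. Shares used two-sided exact sign-flip permutation tests over all sign patterns of the 5 libraries, and the exact interval of the pooled share was from scipy 1.17.1. Cells were thinned to 1000 UMIs for the shares of cells meeting a list or holding a UMI of a gene, whereas the Ighd and lambda shares used all UMIs and were not matched for depth. Doublets were called by Scrublet (scanpy 1.11.5). Coordinates are from GENCODE M21 (GRCm38). The members and lists were chosen with earlier results of these data known. Named genes are the fixed lists, the 10 largest and 10 smallest log2 changes per comparison (adjusted p under 0.05, same direction in 5 of 5 libraries, at least 50 CPM in a gate, without rule, ribosomal, mitochondrial, and V segment genes), the 20 highest, and the 10 most variable genes. Alternatives included TMM, DESeq2 1.42.0, no filter, stricter or wider gates, thinning to 2000 UMIs, doublet removal, and leaving out each library. Exclusion of cells with Jchain or Sdc1, or with UMIs of other lineages, was added after seeing the data. Some genes that the rule for named genes would include are not reported here.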

Additional observations from a re-analysis of the deposited data

Results flagged for a closer look

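Within follicular-gated cells, 46 values were checked for a library far from the other 4, and 5 were past Dixon's limit of 0.71. Chance gives about 1 in 20 for values not chosen by their spread, but Dnaja1 and Hsp90aa1 were chosen for their high values in library 5, and Fos and Iglc1 as genes that vary between libraries, so these flags are a description and their number cannot be set against that rate. Fos (82.4 CPM), Dnaja1 (720), Hsp90aa1 (751), and the share of cells meeting the immediate early list (49.9%) stood apart in library 5. Iglc1 (1457 CPM) stood apart in library 4, where 1 cell held 42.3% of its UMIs.

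Cells that met the follicular rule were also counted in matrices outside the comparisons. There were 10 of 11948 CD45+ cells in rejecting kidneys at 1 week and 20 of 11913 cells in the CD8+ T cell matrix of recipient spleens with accepted grafts at 1 week. There was 1 of 726 cells in the CD8+ T cell matrix of recipient spleens with rejected grafts, and 0 of 4681 cells in that of the naive spleen.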

How the results depend on the processing

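DESeq2, which tested 13009 and 11040 genes, called 1171 genes higher and 1399 lower against the marginal zone gate, so that the balance of directions turned, and 172 higher and 265 lower against the transitional gate. Gates set after thinning gave 1533 higher and 1113 lower against the marginal zone gate, and 107 and 158 against the transitional gate, where a gate of 2 Cd93 UMIs gave 50 and 109. Leaving out 1 library gave 2144 to 2271 higher and 1695 to 1793 lower against the marginal zone gate, and 165 (without library 2) to 270 higher and 271 to 373 lower against the transitional gate. Without the library block, which pairs gates of the same library, the counts were 2020 and 1601, and 194 and 342.

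The follicular share of CD45+ cells was 14.4% with 2 Fcer2a UMIs, 38.6% without a condition on Fcer2a, 10.2% with none and 32.3% with fewer than 3 of the marginal zone genes, and 23.8% to 25.6% without 1 library. The lambda share was 19.6% at a 90% threshold. With thinning to 2000 UMIs, no thinning, 2 list genes, or 4 list genes, the interferon share was 38.0%, 49.6%, 38.7%, or 6.08%, the immediate early share 88.0%, 93.03%, 83.0%, or 36.7%, and the cell cycle share 1.10%, 2.82%, 3.14%, or 0.0426%. The difference in the immediate early share from the transitional gate turned positive with 2 list genes (1.21) and ranged from -1.51 to 1.21 percentage points without 1 library (0.577 without library 5), and that in the cell cycle share turned to 0.485 with 2 list genes. Unthinned, the interferon and immediate early differences from the marginal zone gate turned to -12.9 and -2.29. With thinning to 2000 UMIs the immediate early difference was 7.47 percentage points, against 12.3 in the main setting. The interferon difference was then 2.65, higher in 4 of 5 libraries (exact sign-flip permutation p = 0.125), against 2.49 in the main setting. With 4 list genes it was 1.42.

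Of 161 calls of named genes, 2727 of 2828 alternative values kept direction and call, 100 kept direction only, and Sox4 against the transitional gate turned to 0.17 with 2 Cd93 UMIs. Values without an adjusted p were not counted. TMM scaling, the cell filter, doublet removal, and no filter on low counts each kept all 161. After thinning, 133 kept direction and call and 21 direction only. With 2 Cd93 UMIs only 28 of the transitional calls were kept, and 21 kept direction only. The cause of these changes was not tested. The transitional gate held 85 to 141 cells in a library, which limits its precision.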

Other observations

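Immunoglobulin V segment genes were outside the rule for named genes and were looked at after values were seen. Of 101 heavy chain V genes 17 passed the filter on low counts, and 14 of these were higher and 0 were lower in the follicular than in the marginal zone gate (median log2 change 1.03). Of 100 kappa V genes 15 passed it, with 4 higher and 2 lower, and of 3 lambda V genes 2 passed it, with 1 higher and 0 lower. Of all genes tested there, 24.3% were higher and 18.6% were lower. Against the transitional gate 0 of 11 heavy chain V genes were higher and 1 was lower, 0 of 9 kappa V genes were higher and 4 were lower (median log2 change -0.99), and 0 of 2 lambda V genes were higher and 1 was lower, beside 2.96% higher and 4.27% lower of all genes tested. Genes that passed only through the gate where they are high had to differ, and reads of close V genes cannot be told apart with certainty.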
